A study of Mus musculus with 16 samples.

Results

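Type I interferon-stimulated genes were followed in CD4+ T cells of wild type (WT) animals and of mice that lack AIM2, a cytosolic sensor of double-stranded DNA. The 35 genes were chosen by symbol, as textbook members of the response to interferon-α and interferon-β, and all 35 were found among the 53090 genes of each table. RNA was sequenced from 16 libraries in 4 groups of 4: naïve splenic CD4+ T cells taken fresh (Tn) and CD4+ T cells kept for 48 h under Treg conditions (Treg), each from WT and from Aim2-/- mice. The culture held antibodies to CD3 and CD28, recombinant human TGF-beta and recombinant mouse IL-2. Both genotypes were on the C57BL/6 background, the Aim2-/- mice carry the mutation in all cells, and neither the age nor any pooling of the mice behind a library was given in the labels. The labels do not say that the numbered libraries of a group came from separate mice, so that p-values measure the spread between these libraries, which may in part be technical.

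Interferon-α and interferon-β signal through a receptor of the chains IFNAR1 and IFNAR2 and the kinases JAK1 and TYK2. The kinases phosphorylate STAT2, which acts with IRF9 in the complex ISGF3, and ISGF3 binds the interferon-stimulated response element (ISRE) in the promoters of its targets. The products of these genes bind or cut viral RNA, modify proteins with ISG15, or amplify the response, and resting lymphocytes carry some of them without infection because of a tonic interferon signal.

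Aim2 itself was measured first, as a check of the genotype labels. It was at 32.0 to 37.8 CPM (counts scaled to the depth of each library with TMM factors) in the WT Tn libraries and at 6.44 to 9.21 CPM in the Aim2-/- Tn libraries, and at 36.1 to 43.7 against 7.29 to 10.95 CPM in Treg cells, with no overlap in either state (log2 fold change -2.24 in Tn and -2.12 in Treg). Foxp3, the defining factor of Treg cells, was at 1.97 to 3.98 CPM in the 8 Tn libraries and at 283 to 574 CPM in the 8 Treg libraries. B cell markers summed to at most 2.23 CPM in any library. The 6 markers of plasmacytoid dendritic cells, which produce type I interferon, summed to 53.4 to 108 CPM in Tn and to 976 to 2007 CPM in Treg libraries. That list holds Bst2, one of the 35 genes, and Irf8, which alone was at 939 to 1929 CPM in Treg libraries, while the defining marker Siglech was at most 0.796 CPM in Tn and 0.029 CPM in Treg cells. Natural killer (NK) cell markers summed to 15.96 to 36.97 CPM in Tn libraries and to 1.64 to 8.16 CPM in Treg libraries, and myeloid markers to 12.3 to 19.7 and to 1.85 to 3.97 CPM. Erythroid markers differed by genotype in Tn cells without overlap, at 0.670 to 2.55 CPM in WT and 3.26 to 4.89 CPM in Aim2-/- libraries. The part of these cells in the results was not tested. Library totals ran from 22516424 to 34533316 counts.

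The promoters of the genes were read next, because the ISRE is the sequence through which the 35 genes are thought to respond. Of the 35 genes, 27 had an entry among the RefSeq promoters on GRCm38.p6, which run from 250 bases before to 50 bases after a transcription start. The ISRE core, searched on both strands as GAAA, then 2 bases of any kind, then GAAA again, was held by the promoters of 14 of these 27 genes (51.9%), against 3.99% of the 27025 genes with a promoter. The genes were Ifit1, Ifit3, Oas1a, Oas3, Isg15, Stat2, Ifih1, Ddx58, Rsad2, Bst2, Eif2ak2, Slfn5, Slfn8 and Trim30a. A match describes letters in this window and does not show that a factor was bound. Since the 35 genes were chosen as members of the interferon response, these shares are a description and not a test.

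The promoters of Isg15 and of Rsad2 are shown in full, 5′ to 3′ on the strand of the gene and with the ISRE core in capitals, since these genes fell strongly in culture and hold the core in different forms. Isg15 (chr4:156200769-156201068, minus strand) has 3 overlapping matches in a run of 22 bases, from 78 to 57 bases before the start. Rsad2 (chr12:26456403-26456702, minus strand) has 1 match, read on the opposite strand, from 120 to 111 bases before the start.
Isg15: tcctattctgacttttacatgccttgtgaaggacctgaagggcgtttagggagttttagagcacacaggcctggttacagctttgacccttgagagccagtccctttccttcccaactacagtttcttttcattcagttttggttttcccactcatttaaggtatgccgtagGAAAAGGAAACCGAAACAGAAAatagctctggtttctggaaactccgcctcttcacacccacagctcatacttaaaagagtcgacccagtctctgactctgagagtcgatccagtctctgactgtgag
Rsad2: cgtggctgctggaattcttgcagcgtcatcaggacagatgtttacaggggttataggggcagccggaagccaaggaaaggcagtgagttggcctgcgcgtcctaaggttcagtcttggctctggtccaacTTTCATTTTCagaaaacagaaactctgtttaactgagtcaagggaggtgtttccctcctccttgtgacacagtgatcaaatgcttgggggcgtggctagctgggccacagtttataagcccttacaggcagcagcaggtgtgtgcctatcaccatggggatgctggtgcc

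The core with 10 bases on each side is shown for 5 more genes on the strand on which it reads in this GAAA form, to set genes that fell in culture (Ifit1, Ddx58 and Slfn8) beside Bst2, which was not called, and Eif2ak2, which rose. Ddx58 and Eif2ak2 carry it just after the start, the others before it. The printed match of Ifit1 lies from 85 to 76 bases before its start. A further match of Ifit1, from 104 to 95 bases before, is not printed. The windows lie at chr19:34640794-34640823 for Ifit1 (minus strand), chr4:40239804-40239833 for Ddx58 (plus strand), chr11:83020839-83020868 for Slfn8 (plus strand), chr8:71537577-71537612 for Bst2 (minus strand) and chr17:78882535-78882564 for Eif2ak2 (minus strand).
Ifit1: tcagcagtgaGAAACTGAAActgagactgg
Ddx58: ctggccatagGAAATCGAAActgcctcagg
Slfn8: tgcttttgggGAAAACGAAActgctcaaat
Bst2: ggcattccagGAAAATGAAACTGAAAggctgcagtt
Eif2ak2: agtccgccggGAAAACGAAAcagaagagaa

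In fresh WT Tn cells every one of the 35 genes was expressed, with means from 1.26 CPM for Ifi44 to 539 CPM for Sp100 and a median of 24.1 CPM. Per kilobase of exon, Ifi27l2a, a gene of the ISG12 family, stood highest at 152 CPM per kb, before Sp100 at 71.3, Bst2 at 49.7 and Ifi35 at 36.6 CPM per kb, and Rsad2, Mx1 and Ifi44 stood lowest at 0.706, 0.668 and 0.206 CPM per kb. In WT Treg cells the order was different. Bst2 and Ifi35 led at 49.7 and 38.9 CPM per kb, Dtx3l moved from rank 11 to rank 5 and Eif2ak2 from rank 29 to rank 13, while Irf7 went from rank 9 to rank 22. The means of 7 of the 35 genes lay under 1 CPM in WT Treg cells, where none had done so in WT Tn cells.

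Culture for 48 h lowered most of the group. In WT cells 30 of the 35 genes fell and 1 rose by the quasi-likelihood test of edgeR at an adjusted p under 0.05, with all genes tested in the adjustment. Of all 13675 genes tested, 39.2% fell and 37.7% rose, so that a fall as such was common. The median log2 fold change was -2.40 over the 35 genes and -0.05 over all genes, and 27 of the 35 fell more than 2-fold, against 24.7% of all genes. The groups did not overlap, with Treg below Tn, for 30 of the 35 genes (35% of all genes). A lower CPM in a bulk library can come from fewer cells that carry the transcript or from less of it per cell, and these cannot be told apart here. CPM are shares of a library, so a change in the total RNA of a cell does not show.

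**Figure D1:**
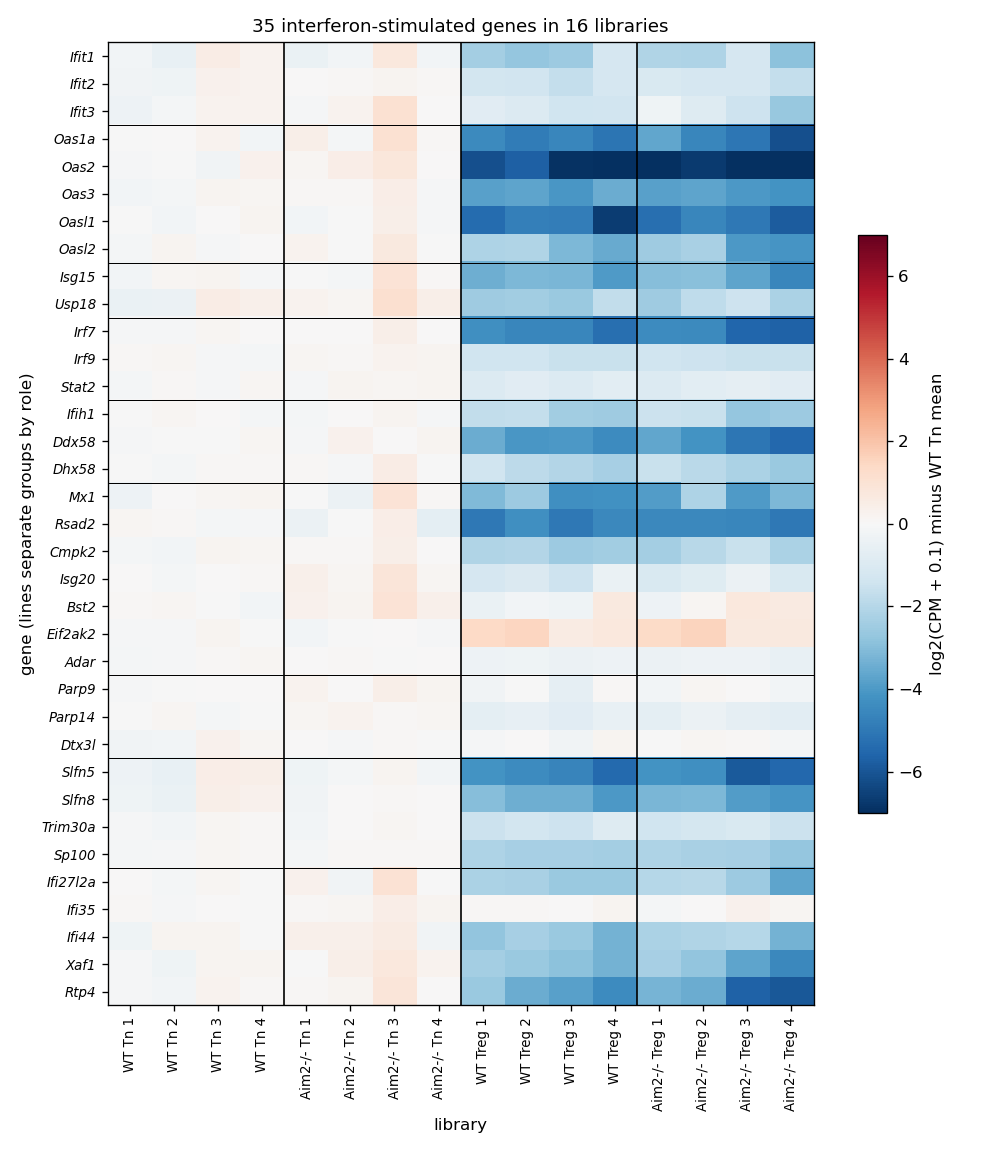
Level of each of the 35 genes (rows, in groups by role) in each of the 16 libraries (columns, numbered by replicate), as log2(CPM + 0.1) minus the mean of the 4 WT Tn libraries, with the colour scale ending at 7 in both directions. The Treg columns are lower for most rows, Eif2ak2 is higher, and Aim2-/- Tn replicate 3 is the highest Tn library for 24 of the 35 genes (share of all genes not computed).

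The OAS family makes the 2′-5′ oligoadenylates that switch on RNase L, and its 5 members (Oas1a, Oas2, Oas3, Oasl1 and Oasl2, on chromosome 5) all fell, with a median log2 fold change of -5.12 in WT cells. Oas2 was at 31.9, 33.3, 28.8 and 41.2 CPM in WT Tn replicates 1 to 4 and at 0.376, 0.55, 0.183 and 0.0376 CPM in WT Treg cells. In Aim2-/- cells it was at 36.4, 47.2, 57.6 and 34.1 CPM in Tn and at 0.153, 0.218, 0.103 and 0.0377 CPM in Treg cells. The lowest Tn library lay far above the highest Treg library in both genotypes, and the fall was the largest that edgeR fitted among the 35 genes (log2 fold change -6.86, SE 0.38, adjusted p = 1.8e-07 in WT by edgeR). Rsad2, with 3 counts in WT Treg cells, had a ratio of Tn to Treg counts of 126 in WT, so the order of these genes is not settled. Oasl1, an OAS-like protein that does not make the second messenger and restrains Irf7 translation, was at 9.65, 8.47, 10.2 and 11.3 CPM in WT Tn and at 0.137, 0.261, 0.243 and 0 CPM in WT Treg cells. In Aim2-/- cells it was at 8.58, 9.71, 13.3 and 9.3 CPM and then at 0.153, 0.327, 0.205 and 0.0755 CPM. Both genotypes again showed no overlap (log2 fold change -5.90 in WT, SE 0.43, and -5.76 in Aim2-/- cells, SE 0.31). Oas1a, Oas3 and Oasl2 fell with log2 fold changes of -5.12, -3.89 and -2.72 in WT cells. Oas1a has near-identical neighbours, and its counts were not whole in 1 library, so reads shared with them could be split.

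The IFIT proteins bind RNA, and IFIT1 prefers viral RNA whose cap lacks the methylation of host caps. Ifit1, Ifit2 and Ifit3, on chromosome 19, all fell, but by less than the OAS genes. Ifit1 was at 10.2, 8.32, 16.7 and 13.9 CPM in WT Tn cells and at 2.22, 1.71, 1.92 and 5.26 CPM in WT Treg cells. In Aim2-/- cells it was at 8.47, 10.3, 19.8 and 10.3 CPM in Tn and at 2.63, 2.55, 5.2 and 1.55 CPM in Treg cells. All Treg values lay below all Tn values of the same genotype (log2 fold change -2.21, SE 0.38, adjusted p = 0.00044 by edgeR in WT), and the highest replicate was between 2.01 and 3.36 times the lowest in the 4 groups. Ifit2 was the most abundant of the family, at 51.8, 51.3, 76.7 and 74.1 CPM in WT Tn and at 25.7, 25, 19.9 and 27.9 CPM in WT Treg cells. In Aim2-/- cells it was at 62.6, 66.7, 72 and 65.4 CPM and then at 29.8, 27.1, 27.7 and 19.5 CPM, a fall of nearly the same size in both (log2 fold change -1.42 in WT and -1.41 in Aim2-/- cells). Ifit3 fell by 1.19 on the log2 scale in WT cells. Its counts were not whole in any of the 16 libraries, so that the authors' counting shared reads between it and another gene.

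ISG15 is a ubiquitin-like protein that is coupled to others, and USP18 both removes it and blocks the receptor chain IFNAR2. Isg15 was at 9.03, 11.4, 11.8 and 9.81 CPM in WT Tn cells and at 0.889, 1.07, 1.07 and 0.564 CPM in WT Treg cells. The Aim2-/- libraries held it at 10.3, 9.62, 20.6 and 11.1 CPM in Tn and at 1.26, 1.31, 0.718 and 0.34 CPM in Treg cells. The level fell 11.96-fold in WT cells (log2 fold change -3.58, SE 0.22, adjusted p = 2.9e-07 by edgeR). Usp18 was at 13.5, 14, 26.8 and 24.1 CPM in WT Tn cells and at 3.25, 3.36, 3.01 and 5.56 CPM in WT Treg cells. Its Aim2-/- values were 22.6, 20.8, 41 and 24.4 CPM in Tn and then 3.21, 5.31, 6.91 and 4 CPM. The log2 fold change was -2.43 (SE 0.29) in WT and -2.54 (SE 0.28) in Aim2-/- cells, without overlap in either.

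The 3 transcription factors of the group all fell, Irf7 by the most. IRF7, which is induced by interferon and in turn drives the interferon-α genes, is the amplifier of the response. Irf7 was at 72.4, 71.5, 84.3 and 78.1 CPM in WT Tn cells and at 3.86, 3.1, 3.07 and 1.88 CPM in WT Treg cells. With AIM2 lost it was at 77.4, 76.6, 103 and 78.2 CPM in Tn and at 3.51, 3.35, 1.54 and 1.43 CPM in Treg cells. The fall was 26.5-fold in WT (log2 fold change -4.73, SE 0.19, adjusted p = 2.1e-08 by edgeR) and 35.5-fold in Aim2-/- cells. The DNA-binding subunit of ISGF3, Irf9, was at 136, 138, 121 and 116 CPM in WT Tn and at 48.8, 48.1, 42.6 and 42.7 CPM in WT Treg cells. Libraries of Aim2-/- cells gave 141, 135, 150 and 145 CPM and then 47.9, 47.5, 42.5 and 43.5 CPM, so that it remained clearly expressed at a level 2.91-fold lower in WT Treg cells. Stat2, another subunit of ISGF3, fell by 0.92 (SE 0.09) on the log2 scale in WT cells, from a mean of 74.4 ± 6.81 to 40.9 ± 3.31 CPM (SD, n = 4).

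The cytosolic RNA sensors RIG-I (Ddx58), MDA5 (Ifih1) and LGP2 (Dhx58) all fell. Ddx58 was abundant in Tn cells, at 130, 134, 135 and 149 CPM in WT, and was at 12.4, 8.11, 8.19 and 6.28 CPM in WT Treg cells. The Aim2-/- libraries held it at 128, 168, 138 and 157 CPM and then at 10.9, 7.31, 4 and 2.98 CPM. The log2 fold change of -4.02 (SE 0.19) in WT cells was the largest among the sensors. Ifih1 was at 20, 21.8, 20.5 and 18.5 CPM in WT Tn and at 6.05, 6.26, 3.65 and 3.53 CPM in WT Treg cells. Its Aim2-/- values were 18.6, 20.9, 22.8 and 19 CPM in Tn and then 6.94, 6.77, 2.97 and 3.32 CPM, with replicates 3 and 4 below replicates 1 and 2 in the Treg cells of both genotypes. Dhx58, which lacks the signalling domain of the other two, fell by 1.94 (SE 0.19) on the log2 scale in WT cells.

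Among 7 other antiviral effectors, 5 fell, 1 rose and 1 was not called in WT cells. Rsad2 encodes viperin, which makes a chain-terminating nucleotide. It was at 3.38, 3.23, 2.81 and 2.83 CPM in WT Tn cells and at 0, 0.0579, 0 and 0.0376 CPM in WT Treg cells, where 3 counts were found over the 4 libraries. With AIM2 lost it was at 2.24, 2.97, 4.32 and 1.83 CPM and then at 0.0382, 0.0364, 0.0342 and 0 CPM, again 3 counts in all. The ratio of Tn to Treg counts at equal depth was 126 in WT (95% counting interval 42.7 to 614) and 103 in Aim2-/- cells (34.8 to 501), intervals which cover counting error only. Mx1, the gene of a dynamin-like GTPase, was low throughout. It was at 1.96, 2.52, 2.72 and 2.9 CPM in WT Tn and 0.205, 0.348, 0.0304 and 0.0376 CPM in WT Treg cells. Libraries of Aim2-/- cells gave 2.42, 1.82, 5.02 and 2.64 CPM and then 0.0763, 0.473, 0.0684 and 0.189 CPM (log2 fold change -4.00 in WT, SE 0.53, and -3.91 in Aim2-/- cells, SE 0.54). Cmpk2, a mitochondrial nucleotide kinase and the neighbour of Rsad2 on chromosome 12, had a log2 fold change of -2.40 in WT cells, Isg20, an exonuclease, one of -1.06, and the RNA editing enzyme Adar one of -0.43.

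Eif2ak2, which encodes the RNA-activated kinase PKR, was the exception that rose. It was at 13.7, 14.1, 17 and 14.4 CPM in WT Tn cells and at 38.4, 42.5, 21.8 and 25.2 CPM in WT Treg cells. The Aim2-/- libraries held it at 12.8, 14.4, 15 and 14.2 CPM in Tn and at 37.7, 44.2, 23.4 and 23.7 CPM in Treg cells. Every Treg library lay above every Tn library of its genotype, and replicates 1 and 2 lay above replicates 3 and 4 in the Treg cells of both (log2 fold change 1.06 in WT, SE 0.21, adjusted p = 0.0012, and 1.14 in Aim2-/- cells, SE 0.20, adjusted p = 0.00038 by edgeR). Within replicates 3 and 4 of WT cells alone the log2 fold change was 0.52. Its counts were not whole in 15 libraries.

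Of the PARP and E3 ligase genes, 1 of 3 fell in WT cells. Parp14, a mono-ADP-ribosyltransferase, was at 163, 184, 148 and 164 CPM in WT Tn and at 103, 110, 93.5 and 113 CPM in WT Treg cells. Its Aim2-/- values were 183, 194, 172 and 178 CPM in Tn and then 103, 121, 108 and 99 CPM, a modest fall without overlap (log2 fold change -0.71 in WT and -0.81 in Aim2-/- cells). Parp9 and Dtx3l encode the subunits of 1 ubiquitin ligase complex, and their log2 fold changes in WT cells were -0.23 (95% interval -0.53 to 0.07) and -0.09 (-0.39 to 0.21), neither called. Within replicates 1 and 2 of WT cells Dtx3l was at 0.20 and passed the test (adjusted p = 0.026 by edgeR). In Aim2-/- cells Parp9 fell by 0.33 (adjusted p = 0.015 by edgeR) and Dtx3l had a log2 fold change of -0.02. The Parp9 call was lost without Aim2-/- Treg replicate 1 or replicate 4 (adjusted p = 0.076 in both) and within replicates 1 and 2 (adjusted p = 0.23). These neighbours on chromosome 16 overlap at their starts on opposite strands, and their counts were not whole in any library.

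All 4 genes of the Schlafen, TRIM and nuclear body group fell. Slfn5, a nuclear Schlafen protein, was at 64.2, 56.4, 113 and 107 CPM in WT Tn and at 4.31, 3.82, 3.23 and 1.8 CPM in WT Treg cells. With AIM2 lost it was at 65, 74.6, 91.8 and 71.4 CPM and then at 4.46, 4.04, 1.3 and 1.7 CPM (log2 fold change -4.74 in WT, SE 0.34). Slfn8, another member of the family, was at 69, 62.5, 114 and 106 CPM in WT Tn and at 10.5, 7.94, 7.88 and 5.11 CPM in WT Treg cells. Libraries of Aim2-/- cells gave 71.8, 85.7, 88.7 and 88.1 CPM and then 9.27, 9.61, 5.57 and 4.76 CPM (log2 fold change -3.53 in WT, SE 0.28). In WT Tn cells both genes were nearly 2-fold higher in replicates 3 and 4 than in replicates 1 and 2. Sp100, a scaffold of nuclear bodies, had a log2 fold change of -2.34 (SE 0.09) and the ubiquitin ligase gene Trim30a one of -1.32 (SE 0.14) in WT cells.

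Of 5 other interferon-induced genes 4 fell. Rtp4, a receptor transporter with antiviral activity, was at 16.2, 14.9, 20.4 and 18.4 CPM in WT Tn and at 2.8, 1.48, 1.16 and 0.714 CPM in WT Treg cells. The Aim2-/- libraries held it at 18.4, 20.1, 31.3 and 17.9 CPM and then at 1.72, 1.46, 0.239 and 0.189 CPM (log2 fold change -3.55 in WT, SE 0.35, and -4.67 in Aim2-/- cells, SE 0.52). Ifi44 was the lowest of the group, at 0.999, 1.42, 1.42 and 1.21 CPM in WT Tn and at 0.103, 0.174, 0.122 and 0.0376 CPM in WT Treg cells. Its Aim2-/- values were 1.64, 1.64, 1.94 and 1.06 CPM in Tn and then 0.191, 0.218, 0.239 and 0.0377 CPM, a fall in both genotypes (log2 fold change -3.49 in WT and -3.20 in Aim2-/- cells). Xaf1, a pro-apoptotic factor, had a log2 fold change of -2.84 and Ifi27l2a one of -2.47 in WT cells. Ifi35 was at 63.1 ± 2.86 CPM in WT Tn and 67.1 ± 2.48 CPM in WT Treg cells (SD, n = 4), with a log2 fold change of 0.03 and a 95% interval from -0.11 to 0.18.

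**Figure D2:**
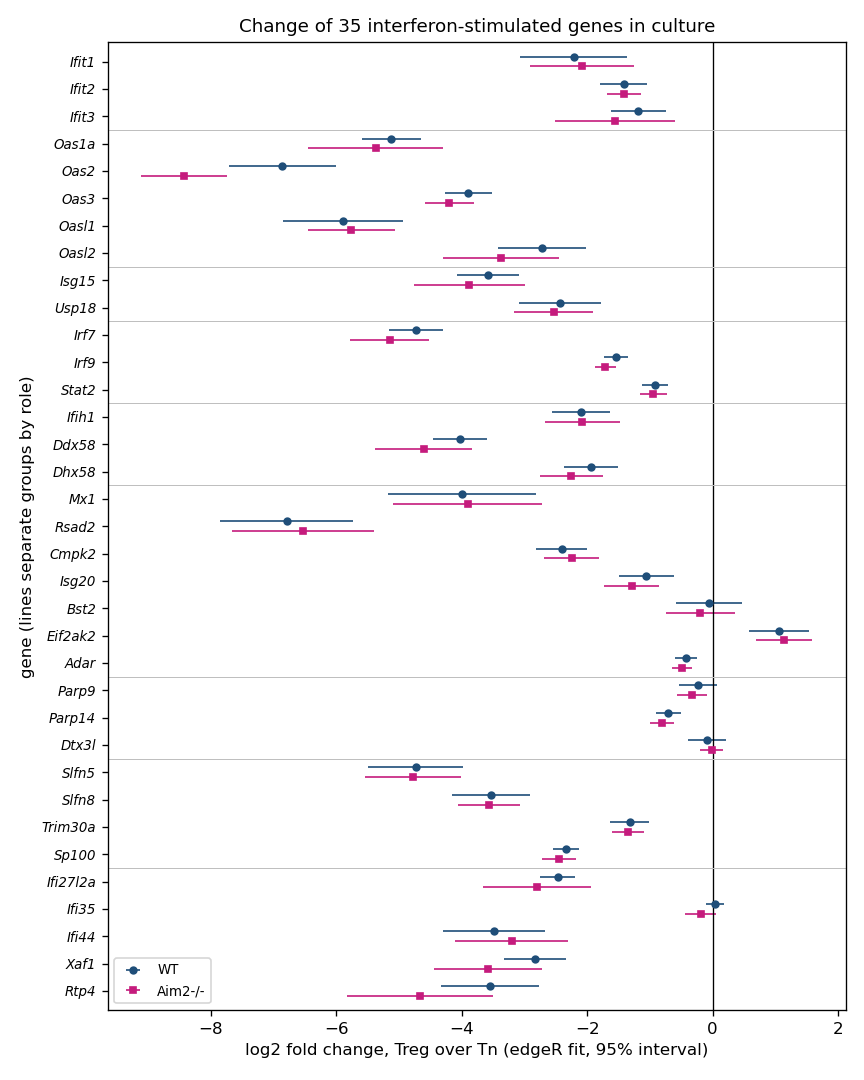
Log2 fold change of each of the 35 genes between Treg and Tn cells (horizontal axis) in WT (circles) and Aim2-/- cells (squares), with 95% intervals from the edgeR fits of 8 libraries each. Most genes lie left of 0, from -6.86 (Oas2) in WT cells, while Bst2, Dtx3l and Ifi35 lie near 0 and Eif2ak2 lies to the right in both genotypes.

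In Aim2-/- cells 31 of the 35 genes fell and 1 rose, with a median log2 fold change of -2.45 against -0.04 over all genes. Of all 13713 genes tested, 40.2% were lower and 39.1% higher. The 30 genes that fell in WT cells all fell in Aim2-/- cells too, with Parp9 in addition, and Eif2ak2 rose in both. A fall of more than 10-fold was fitted for 13 genes in WT and for 14 genes in Aim2-/- cells. The share of all genes with such a fall was not computed. The mean log2 CPM over the 35 genes was 4.92 ± 0.13 in WT Tn, 5.07 ± 0.23 in Aim2-/- Tn, 2.48 ± 0.21 in WT Treg and 2.41 ± 0.39 in Aim2-/- Treg cells (SD, n = 4), and no test was made on this score because the list was chosen with results of these libraries known.

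**Figure D3:**
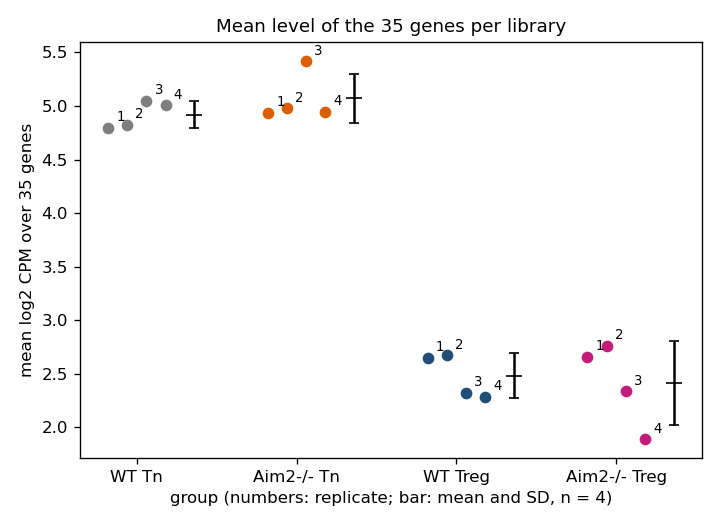
Mean log2 CPM over the 35 genes in each library (vertical axis) by group, with the replicate number beside each point and the mean and SD of 4 libraries as a bar. The Tn libraries lie between 4.79 and 5.42 and the Treg libraries between 1.89 and 2.76, and Aim2-/- Tn replicate 3 and Aim2-/- Treg replicate 4 stand apart within their groups.

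Whether AIM2 loss changed the group was then asked within each state. In Tn cells 0 of the 35 genes passed the test between Aim2-/- and WT (smallest adjusted p = 0.41 by edgeR), with 0.231% of all 13441 genes called, and DESeq2 and limma-voom also called 0 of the 35. At an unadjusted p under 0.05 there were 5 of the 35, all with higher values in Aim2-/- cells (Bst2, Isg20, Parp9, Ifi35 and Oas2), against 10.3% of all genes in either direction and 5.59% with higher values. The fitted log2 fold change was above 0 for 30 of the 35 genes, with a median of 0.17, against 52.7% and a median of 0.01 over all genes. These values rested in part on 1 library. Aim2-/- Tn replicate 3 was the highest of the 8 Tn libraries for 24 of the 35 genes, with the share of all genes not computed. Without it 25 genes were fitted above 0, the median was 0.06 and 1 gene had an unadjusted p under 0.05. Without WT Tn replicate 1, 25 were above 0 (median 0.14), and without WT Tn replicate 3, 34 were (median 0.20). Within replicates 1 and 2, which leave out Aim2-/- Tn replicate 3, 30 were above 0 (median 0.15, 8 at an unadjusted p under 0.05 by edgeR). Within replicates 3 and 4, 26 were (median 0.17, 7 at such a p). Over all genes 53% were above 0 within replicates 1 and 2 and 52.4% within replicates 3 and 4. At an adjusted p under 0.05, edgeR called 0.205% and 3.7% of all genes there. The share of all genes at an unadjusted p under 0.05 was not computed for these fits or for those without 1 library.

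Bst2, which encodes tetherin, a membrane protein that holds budding virions at the cell surface, had the smallest p among the 35 in Tn cells. It was at 47, 49.1, 44.5 and 38.8 CPM in WT Tn libraries and at 54.1, 50.1, 88 and 58.1 CPM in Aim2-/- Tn libraries. All Aim2-/- values lay above all WT values, as also for Isg20 and Ifi35 (3 of the 35 genes, and 3% of all genes), and the highest was replicate 3. The log2 fold change was 0.50 (SE 0.17, unadjusted p = 0.013, adjusted p = 0.41 by edgeR), and without that replicate it was 0.29 (adjusted p = 0.7). Over all the alternatives its adjusted p ran from 0.072 to 0.7. In the same replicate Ifng was at 7.18 CPM against 2.40 to 4.15 CPM in the other 7 Tn libraries, and the NK cell genes Klrb1c and Klrk1 were at 6.99 and 7.54 CPM, close to the 6.37 and 7.37 CPM of WT Tn replicate 3. The NK cell markers Eomes and Ncr1 were not highest there. Eomes was at 19.5 CPM against 31.7 CPM in Aim2-/- Tn replicate 1, and Ncr1 at 0.146 CPM against 0.236 CPM in WT Tn replicate 4. The part of these in the interferon-stimulated genes was not tested.

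**Figure D4:**
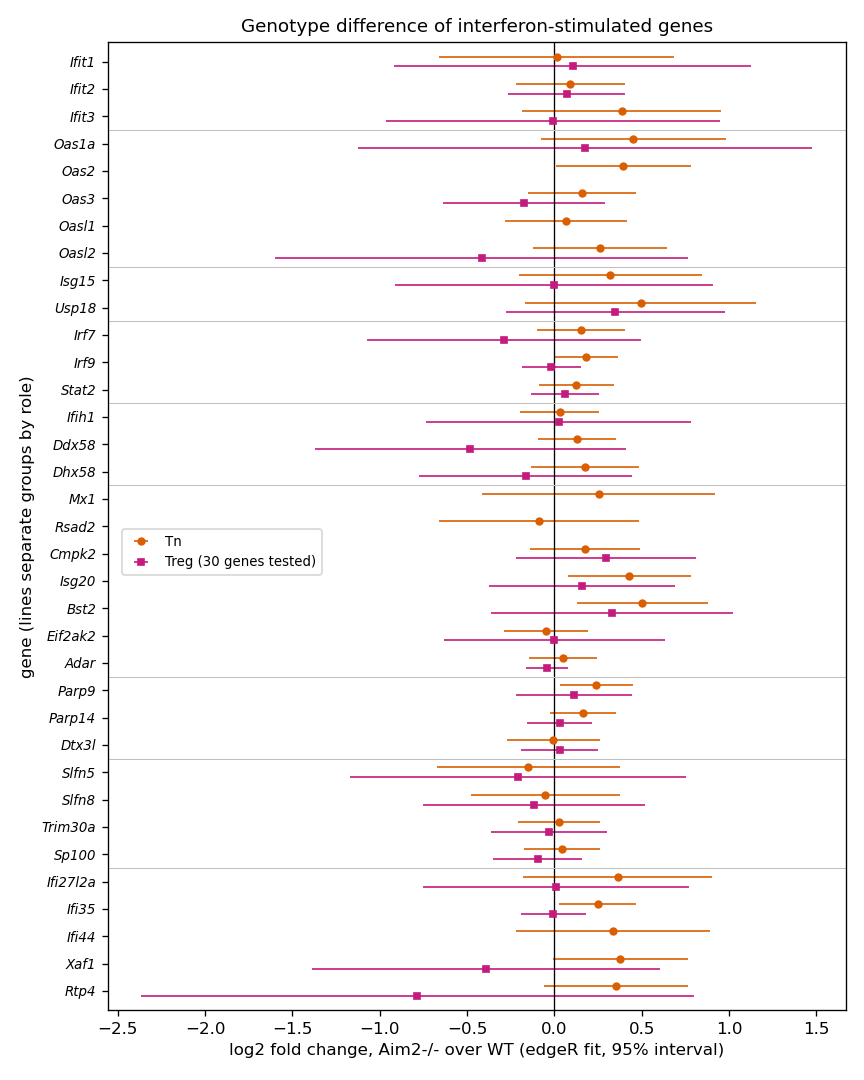
Log2 fold change of each gene between Aim2-/- and WT cells (horizontal axis) in Tn (circles, 35 genes) and Treg cells (squares, 30 genes), with 95% intervals from the edgeR fits of 8 libraries each. Most circles lie slightly right of 0, the squares scatter on both sides of it, and 0 genes passed the test in either state.

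In Treg cells 30 of the 35 genes had enough counts to be tested (Oas2, Oasl1, Mx1, Rsad2 and Ifi44 did not), and 0 were called by edgeR, where 0.219% of 13221 genes were. There were also 0 at an unadjusted p under 0.05 (2.31% of all genes), and 0 called by DESeq2 or limma-voom. The fitted values were above 0 for 14 and below 0 for 16 genes, with a median of -0.0047. The smallest p belonged to Cmpk2, at 1.88, 1.94, 1.37 and 1.5 CPM in WT Treg libraries and at 1.56, 2.11, 2.84 and 1.77 CPM in Aim2-/- Treg libraries. The groups overlapped, and the log2 fold change was 0.30 (95% interval -0.22 to 0.81). In Tn cells it was at 7.72, 7.45, 9.84 and 9.23 CPM in the WT group and at 9.1, 8.94, 11.3 and 8.68 CPM in the Aim2-/- group. The intervals were wide for the genes that culture had brought low, such as Rtp4 (-2.37 to 0.80) and Xaf1 (-1.39 to 0.60), and narrow for abundant ones, such as Adar (-0.16 to 0.08) and Irf9 (-0.19 to 0.15), so that a 2-fold difference lay inside the interval for Rtp4 and Xaf1 and outside it for Adar and Irf9.

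The genotype effects of the states were compared as an interaction over all 16 libraries. It was called for 0 of the 35 genes by edgeR (smallest adjusted p = 1) and for 0.0205% of 14669 genes, and for 0 of the 35 by DESeq2 and limma-voom. Oas2 alone had an unadjusted p under 0.05, where 3.49% of all genes did. Its interaction was -1.59 on the log2 scale (SE 0.67, unadjusted p = 0.031, adjusted p = 1 by edgeR), and the Aim2-/- Treg libraries held 14 counts of it in all. Over its alternatives its adjusted p ran from 0.23 to 1.

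The highest and lowest library of a group differed more than 2-fold for 2 of the 35 genes in WT Tn, 7 in Aim2-/- Tn, 13 in WT Treg and 21 in Aim2-/- Treg cells. The Treg counts include genes at a few counts, where counting error alone widens the ratio. They also include Oasl1 in WT and Rsad2 in both genotypes, where a library held 0 counts and no ratio was formed. The share of all genes was not computed. In WT Tn cells replicates 3 and 4 were both above replicates 1 and 2 for 21 of the 35 genes (35.4% of all genes) and both below for 3 (34%). All genes here are those with at least 10 counts in all 4 libraries of the group. In the same libraries Ctla4 was at 12.7 and 17.4 CPM in replicates 3 and 4 against 79.4 and 79.7 CPM in replicates 1 and 2, and the naïve cell receptor gene Ccr7 at 408 and 414 against 1378 and 1559 CPM. In Aim2-/- Tn cells replicates 3 and 4 were both above replicates 1 and 2 for 9 genes (20.2% of all genes) and both below for 2 (20%). In Treg cells they were both below for 17 genes in WT (24.5%) and for 19 genes in Aim2-/- cells (29.7%). They were both above for 0 genes in WT (26.9%) and for 2 genes in Aim2-/- Treg cells (33.8%). Aim2-/- Treg replicate 4 was the lowest Treg library for 17 of the 35 genes, and the share of all genes for which it was lowest was not computed.

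Bst2 in Treg cells moved with other features of the libraries. It was at 32.3, 39.2, 35.9 and 72.2 CPM in WT and at 34.5, 48.8, 74.2 and 69.9 CPM in Aim2-/- Treg libraries. The 3 high libraries, WT replicate 4 and Aim2-/- replicates 3 and 4, were also those with the lowest Foxp3, at 283, 334 and 293 CPM against 500 to 574 CPM in the other 5, and with the highest Ifng, at 21.1, 13.8 and 25.8 CPM against 0.943 to 6.66 CPM. Bst2 had a log2 fold change for culture of -0.06 (95% interval -0.58 to 0.47) in WT cells. Without WT Treg replicate 4 it was -0.33 and passed the test (adjusted p = 0.024 by edgeR), while within replicates 1 and 2 it was -0.42 (adjusted p = 0.0064 by edgeR) and within replicates 3 and 4 it was 0.31 (adjusted p = 0.52). The ISG15-conjugating enzyme gene Ube2l6 was at 20.7, 20.1 and 26.7 CPM in these 3 libraries and at 4.07 to 12.7 CPM in the other 5. Their part in the level of Bst2 was not tested.

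The other genes of the pathway were read from a list of 53 symbols. Of 17 type I interferon genes, 14 had no count in any library and the highest count of any was 6, or 0.186 CPM. This is close to the level of 3 counts (0.0869 to 0.133 CPM by library), so that their transcripts were at or near the detection limit in Tn and Treg cells. Ifnab held 9 counts over the WT Tn libraries, 9 over the Aim2-/- Tn libraries and 0 in the Treg libraries. Of the 34 pathway genes tested for culture in WT cells, 11 rose, 16 fell and 7 were not called, where 37.7% of all genes rose and 39.2% fell, with a median log2 fold change of -0.20. Those that fell included all 4 receptor genes tested. Ifnar1 was at 203, 236, 156 and 166 CPM in WT Tn and 66.6, 63.8, 57.2 and 49.3 CPM in WT Treg cells, without overlap (log2 fold change -1.73, adjusted p = 3.3e-06 by edgeR). Ifnar2 fell less, from 47.7 ± 0.98 to 33.6 ± 3.3 CPM (SD, n = 4, log2 fold change -0.56), and Ifngr1, a chain of the interferon-γ receptor, fell by 2.57 on the log2 scale. The size of the Ifngr1 fall depended on the replicates. It was at 285, 298, 100 and 98.5 CPM in WT Tn replicates 1 to 4 and at 39, 32.5, 37.2 and 27.2 CPM in WT Treg cells.

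The largest rise among the named genes of the pathway was that of Irf8, a factor of myeloid and lymphoid development, from 8.12 to 12.7 CPM in the WT Tn libraries to 939 to 1764 CPM in the WT Treg libraries (log2 fold change 6.93), followed by Irf5 (3.05), Ube2l6 (3.03) and the RNA sensor gene Tlr7 (2.45). The falls beside that of Ifngr1 included those of Socs3, an inhibitor of JAK kinases (-3.25), of the kinase gene Ikbke (-2.69) and of Herc6, the mouse ligase for ISG15 (-2.56). For genotype, 0 of the 35 pathway genes tested in Tn and 0 of the 34 tested in Treg cells were called by edgeR. The smallest adjusted p in Tn cells was 0.31 by edgeR. At an unadjusted p under 0.05 there were 2 of the 35 in Tn (10.3% of all genes), both with higher values in Aim2-/- cells. In Treg cells there were 0 of the 34 (2.31% of all genes).

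**Figure D5:**
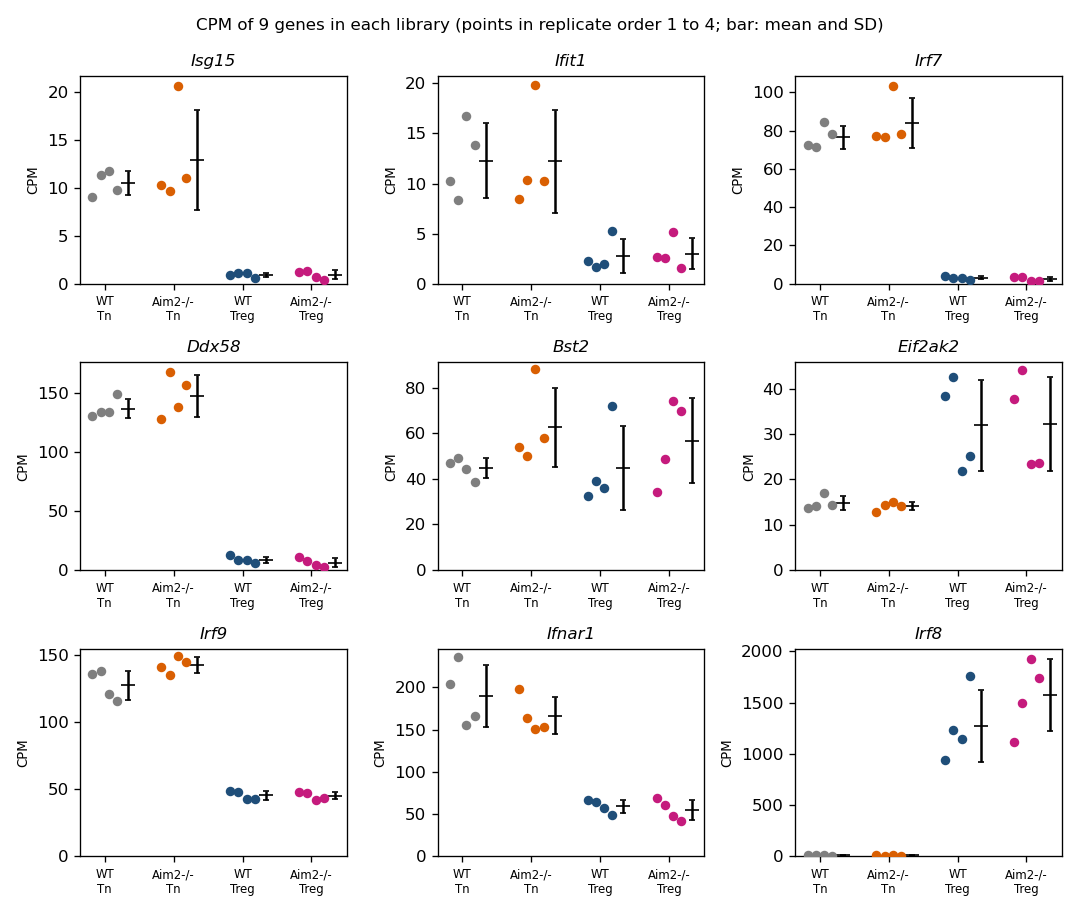
CPM of 9 genes (panels) in each library by group, with points in the order of replicates 1 to 4 and a bar for the mean and SD of 4 libraries, and vertical axes from 0. Isg15, Ifit1, Irf7, Ddx58, Irf9 and Ifnar1 are lower in Treg than in Tn cells of both genotypes, Eif2ak2 and Irf8 are higher, and Bst2 is high in WT Treg replicate 4 and in Aim2-/- Treg replicates 3 and 4.

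The promoter letters were then set beside the culture results. Of the 23 genes with a promoter that fell in WT cells, 12 hold the ISRE core, as do 2 of the 4 others (Bst2 and Eif2ak2, but not Dtx3l or Ifi35). These counts were made after the values were known and were not tested.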

How the data were processed

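Stranded mRNA libraries were sequenced as single-end reads. The authors used STAR for alignment to GRCm38 and RSEM for quantification, and the strand setting is not given in the sources used here. They deposited 1 table per library that holds the expected count of each gene, neither normalized nor filtered, and the values were rounded to whole numbers here. Groups and replicate numbers came from the titles. A gene was tested where 4 libraries of a fit held 10 counts or more of it. The test was edgeR's quasi-likelihood F test (version 4.0.16 in R 4.3.3, robust, TMM, two-sided), checked on simulated data, with Benjamini-Hochberg adjustment over all genes tested and a threshold of 0.05. Each genotype and culture comparison used its 8 libraries and the interaction all 16.

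Alternatives were DESeq2 1.42.0, limma 3.58.1 (voom), RLE scaling, other filters, a replicate block, a term for replicates 1 and 2 against 3 and 4, fits within each of these pairs and leaving out each library. CPM used TMM factors, and per-kilobase levels used exon lengths of GENCODE M21. The score is the mean log2 CPM with a prior count of 2. Between replicates of a group the chi-square per degree of freedom was 11.4 or more, so no 2 tables held the same library. Intervals for few counts are at 95%, and like the floor of 3 counts they cover counting error only, since the reads carry no molecular identifiers.

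The 35 genes, their roles and the pathway list were chosen with earlier results of these data known. Values in every library are given for genes called for genotype, otherwise for the gene with the smallest p in each state, and for the 2 called genes of each role with the largest change for culture in WT cells. Pathway genes were named where called, at most 8 by size, with Ifnar1, Ifnar2 and Aim2; 1 gene that the rule also names and 1 further promoter motif that was searched are not reported here. The promoters printed whole are those of genes named by this rule. Eif2ak2, the shorter promoter stretches, Ifng, Ctla4, Ccr7, Klrb1c, Klrk1, Eomes and Ncr1 were added after the values were seen.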

Additional observations from a re-analysis of the deposited data

Results flagged for a closer look

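A gap test at the 95% level was run on each gene and on the score in each group of 4 libraries, 144 groups in all, and it marked 10 (6.94%), where chance marks about 1 in 20. Of these, 6 were high values of Aim2-/- Tn replicate 3. In that library Ifit1 was at 19.8 CPM (nearest replicate 10.3), Isg15 at 20.6 CPM (11.1), Irf7 at 103 CPM (78.2), Cmpk2 at 11.3 CPM (9.10) and Rtp4 at 31.3 CPM (20.1), and the mean log2 CPM of the 35 genes was 5.42 (4.98).

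The other 4 fell on several libraries. Ifit1 at 5.26 CPM (nearest 2.22) and Usp18 at 5.56 CPM (3.36) were high in WT Treg replicate 4, Sp100 at 489 CPM (560) was low in Aim2-/- Tn replicate 1, and Rsad2 was at 0 CPM (0.0342) in Aim2-/- Treg replicate 4, where the other replicates held 1 count each.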

How the results depend on the processing

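The genotype comparisons and the interaction called 0 of the 35 genes under every alternative. The culture calls ranged from 25 to 33 genes in WT and from 24 to 33 in Aim2-/- cells over the tools, scalings, filters and splits, and from 28 to 32 in each when 1 library was left out; the lowest, 25 and 24, came with 10 counts asked of every library, where 29 and 27 of the 35 genes were tested. Over all genes, DESeq2 called 127 for genotype in Tn cells against 31 by edgeR, and 52 against 29 in Treg cells. With the median over genes in place of the mean, the score fell by 2.19 in place of 2.44 in WT culture; the cause was not tested. In Tn cells its genotype difference was 0.15, or 0.31 with the median, and it was between 0.037 and 0.20 when 1 library was left out, the lowest without Aim2-/- Tn replicate 3.

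Changes of sign were seen for Bst2, Dtx3l and Ifi35 in culture and for Cmpk2 for genotype. Leaving out 1 library gave log2 fold changes in WT culture from -0.018 to 0.091 for Ifi35, -0.19 to 0.021 for Dtx3l and -0.33 to 0.12 for Bst2, and in Aim2-/- culture from -0.34 to 0.024 for Bst2 and -0.087 to 0.084 for Dtx3l. Dtx3l in Aim2-/- culture was at 0.0053 with DESeq2, 0.0052 with RLE scaling, 0.023 without a filter and 0.073 within replicates 1 and 2, where it was at 0.20 in WT culture and was called higher (adjusted p = 0.026). Bst2 in WT culture was at 0.31 within replicates 3 and 4 and at -0.42 (adjusted p = 0.0064) within replicates 1 and 2, and Cmpk2 for genotype in Treg cells at -0.063 within replicates 1 and 2. The causes were not tested. Of the genes called for culture in Aim2-/- cells, Ifit3 had an adjusted p of 0.055 without a filter and Ifit1 one of 0.078 within replicates 3 and 4.

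The replicate numbers were shared by the titles, and the libraries were not taken as paired by them. The correlation of deviations between libraries of 1 number ran from -0.013 to 0.395 between genotypes in Treg cells, where 3 of 4 numbers were above 0.1, and it was under 0.1 for some number in each comparison, and not every library matched its own number best. With the number as a replicate block, 0 of these genes were called for genotype or the interaction. At an unadjusted p under 0.05 by edgeR there were 8 of 35 genes in Tn, 4 of 30 in Treg and 6 of 35 for the interaction. The share of all genes at such a p was not computed with the block. For culture 31 genes were called in WT (75.7% of all genes) and 33 in Aim2-/- cells (79.2%), in either direction. In Aim2-/- culture Ifi35 joined (log2 fold change -0.19, adjusted p = 0.039 by edgeR). Depth limits the genes at a few counts in Treg cells, of which Oas2, Oasl1, Mx1, Rsad2 and Ifi44 could not be tested for genotype there.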
